A study of Mus musculus with 8 samples.

Results

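Cytochrome c oxidase, complex IV of the respiratory chain, is built from several small nuclear-encoded subunits that exist in more than 1 form. The 10 genes described here are Cox4i1, Cox4i2, Cox6a1, Cox6a2, Cox6b1, Cox7a1, Cox7a2, Cox7a2l, Cox8a and Cox8b, found by symbol among the 48440 entries of the deposited count table. RNA-seq was run on purified cardiomyocytes of C57BL6/J mice at postnatal day 2. The 8 libraries come from 4 litters, with the heart of 1 male and the heart of 1 female from each. The labels name no treatment and no genetic change in any group, and male and female pups of all litters share strain and age.

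Complex IV takes electrons from cytochrome c and passes them to oxygen while it pumps protons across the inner mitochondrial membrane. Its catalytic core is encoded by mitochondrial DNA, and nuclear subunits surround that core and tune its activity. For subunits VIa, VIIa and VIII, mammals carry a form used in most tissues, often called the liver form, and a form used in heart and skeletal muscle. In rodents the muscle forms are encoded by Cox6a2, Cox7a1 and Cox8b, and the ubiquitous forms by Cox6a1, Cox7a2 and Cox8a. Heart muscle is known to change from the ubiquitous to the muscle forms around and after birth. Subunit IV differs: Cox4i1 encodes the common form, while Cox4i2 encodes one best known from lung and oxygen-sensing cells.

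Library totals ran from 14226342 to 24910243 counts, and the lowest was that of the female of litter 3. Xist, the RNA of the inactive X chromosome, had at least 15865 counts in each female library and at most 124 in each male one. Ddx3y, from the Y chromosome, had at least 1121 counts in males and at most 3 in females, so that all 8 libraries had the pattern of their labelled sex. The 8 cardiomyocyte markers (such as Tnnt2, Myh6 and Ttn) summed to between 54886 and 69515 CPM. CPM are counts scaled to a common library total, here after adjustment by the trimmed mean of M-values (TMM) method. Markers of fibroblasts summed to 26.3 to 168 CPM, of endothelial cells to 13.8 to 127 CPM, of macrophages to 3.80 to 9.15 CPM and of the epicardium to 2.10 to 4.57 CPM. No listed marker of these cell types was at 0 in every library. Litter 3 stood apart, with the lowest fibroblast sums and with 3903 genes called against the mean of the other litters, the most of the 4. The main results that rest on it are also given without it.

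Of the 10 genes, 9 had enough counts to be tested and 1, Cox4i2, did not. Levels of different genes are compared here only as CPM per kb of the main annotated transcript. On that scale Cox4i1 was highest, at 1826 ± 150 (SD, n = 8 libraries, as for all values of this order). Cox6a2 followed at 1222 ± 91.3, and Cox6b1 at 1124 ± 93.7, and the ranges of these 2 genes over the libraries overlapped. Next came Cox7a2 at 604 ± 55.8, Cox8b at 553 ± 63.7, Cox8a at 552 ± 47.2 and Cox6a1 at 475 ± 22.3. Each of these 4 genes overlapped in range with its neighbour in the order. Cox7a1 lay below them at 327 ± 37.9, then Cox7a2l at 165 ± 16.9, and Cox4i2 was last at 0.229 ± 0.187. A muscle form was thus the higher member of its pair for subunit VIa, about level with its partner for subunit VIII, and the lower member for subunit VIIa. The ratio of levels per kb, muscle to ubiquitous, was taken in each library. Its mean over the 8 libraries was 2.57 for Cox6a2 to Cox6a1, 1.01 for Cox8b to Cox8a and 0.545 for Cox7a1 to Cox7a2.

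**Figure D1:**
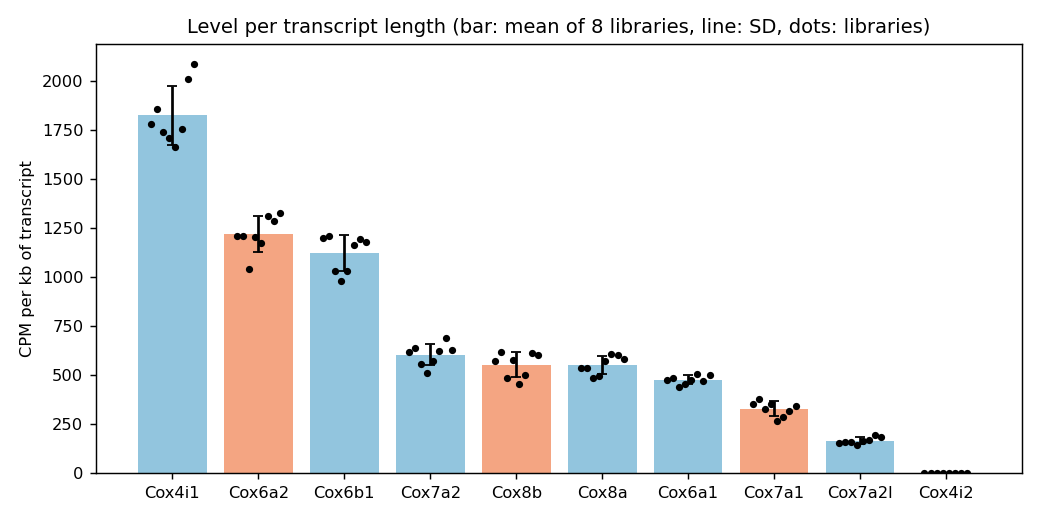
Bars give the mean level of each of the 10 genes over 8 libraries in CPM per kb of transcript, lines the SD and dots the libraries. Orange bars are the muscle forms Cox6a2, Cox8b and Cox7a1, and blue bars the other genes. Cox4i1 leads at 1826, and Cox4i2, at 0.229, cannot be seen on this scale.

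For subunit VIa, a membrane-spanning subunit that is known to take part in its regulation by adenine nucleotides, the muscle form made up most of the reads. Cox6a2 (chr7:128205435-128206387, minus strand, GRCm38) had 824 and 824 CPM in the male and female of litter 1, 710 and 819 in litter 2, 800 and 891 in litter 3, and 876 and 904 in litter 4. The male of litter 2 was lowest and the female of litter 4 highest, and the litters overlapped. Cox6a1 (chr5:115345642-115348981, minus strand) had 272 and 276 CPM in litter 1, 250 and 260 in litter 2, 270 and 289 in litter 3, and 268 and 286 in litter 4. Both libraries of litter 2 were below all others, by a small margin. The share of Cox6a2 in the reads of the pair was 75.3% ± 0.825 (SD, n = 8), from 73.9% in the male of litter 2 to 76.6% in the male of litter 4. The 95% Wilson intervals of these extremes were 73.4 to 74.5% and 76.0 to 77.1%, and all such intervals cover counting error only. Per transcript length the share was 72.0% ± 0.896. The range of its mean log2 ratios between litters was 0.10, against 0.46 for subunit VIIa and 0.45 for subunit VIII.

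For subunit VIIa, a small protein of a single membrane span, 3 genes were measured: the muscle form Cox7a1, the ubiquitous form Cox7a2, and Cox7a2l. The last encodes a related protein, also known as SCAFI, that joins complex III and complex IV into a supercomplex. The start regions of Cox7a1 and Cox7a2 are shown because Cox7a1 was called lower in litter 3 and its partner was not. They span chr7:30183921-30184220 on the plus strand and chr9:79759804-79760103 on the minus strand (RefSeq, GRCm38.p6), 250 bases before to 50 after the start. Capitals mark E-box letters (CANNTG) and, in Cox7a2, also the Sp1 letters GGGCGG.
Cox7a1: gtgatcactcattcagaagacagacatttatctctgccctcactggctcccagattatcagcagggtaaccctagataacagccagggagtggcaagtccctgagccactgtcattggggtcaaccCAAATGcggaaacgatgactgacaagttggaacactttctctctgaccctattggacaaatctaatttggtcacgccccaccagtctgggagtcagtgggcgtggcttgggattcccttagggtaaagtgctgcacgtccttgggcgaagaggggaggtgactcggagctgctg
Cox7a2: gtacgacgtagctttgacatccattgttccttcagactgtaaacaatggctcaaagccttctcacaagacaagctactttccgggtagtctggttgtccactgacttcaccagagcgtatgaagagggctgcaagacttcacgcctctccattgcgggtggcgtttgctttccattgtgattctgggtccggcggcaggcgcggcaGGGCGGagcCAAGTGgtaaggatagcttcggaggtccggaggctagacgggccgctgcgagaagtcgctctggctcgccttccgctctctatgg
The search covered both strands. The E-box letters stood at position -124 from the start in Cox7a1 and at -35 in Cox7a2, and are in 72.3% of 32851 start regions of the same length. The Sp1 letters stood at -44 in Cox7a2, and 35.7% of all start regions hold them. None of the other letters searched were found in either region: TATAAA, the ETS letters CCGGAAG, the motif of NRF1, a factor of mitochondrial genes, and that of MEF2, a factor of muscle genes. Such a match is a description of letters, not of binding.

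Cox7a1 (chr7:30184144-30186078) had 139 and 149 CPM in the male and female of litter 1, 129 and 138 in litter 2, 103 and 113 in litter 3, and 124 and 134 in litter 4. Both libraries of litter 3 were below the other 6, and both libraries of litter 1 were above them. Cox7a2 (chr9:79755361-79759878, minus strand) had 407 and 422 CPM in litter 1, 367 and 337 in litter 2, 377 and 410 in litter 3, and 455 and 412 in litter 4. Here litter 2, not litter 3, held the lowest libraries. Cox7a2l (chr17:83501918-83517330, minus strand) had 165 and 169 CPM in litter 1, 168 and 155 in litter 2, 175 and 178 in litter 3, and 210 and 198 in litter 4. Both libraries of litter 4 were above the other 6. Of the 100-base windows of the Cox7a2l transcript, 11.7% also occur in the pseudogene Gm6969, which had 14 to 36 counts per library, so a small part of its reads is uncertain.

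The share of Cox7a1 in the reads of Cox7a1 and Cox7a2 was 24.4% ± 2.76 (SD, n = 8). It was 25.4% and 26.1% in the male and female of litter 1, 26.0% and 29.0% in litter 2, 21.5% and 21.6% in litter 3, and 21.4% and 24.5% in litter 4. The female of litter 2, with a 95% Wilson interval of 28.2 to 29.9%, was above every other library. The libraries of litter 3 and the male of litter 4 were lowest, and their intervals overlapped. Per transcript length the share was 35.1% ± 3.39, and 30.5% with the longest annotated transcript of each gene in place of the main one. Counted per length among all 3 genes of the family, Cox7a1 made up 29.9% ± 3.19, Cox7a2 55.1% ± 2.40 and Cox7a2l 15.0% ± 1.17.

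Subunit VIII is among the smallest subunits, and its muscle form Cox8b stands beside the ubiquitous Cox8a. Their start regions are shown for the same reason, at chr7:140900397-140900696 for Cox8b and chr19:7217567-7217866 for Cox8a, both on the minus strand (RefSeq, GRCm38.p6). In Cox8b the capitals mark E-box letters and TATAAA, and in Cox8a E-box letters and the ETS letters CCGGAAG, read on the other strand.
Cox8b: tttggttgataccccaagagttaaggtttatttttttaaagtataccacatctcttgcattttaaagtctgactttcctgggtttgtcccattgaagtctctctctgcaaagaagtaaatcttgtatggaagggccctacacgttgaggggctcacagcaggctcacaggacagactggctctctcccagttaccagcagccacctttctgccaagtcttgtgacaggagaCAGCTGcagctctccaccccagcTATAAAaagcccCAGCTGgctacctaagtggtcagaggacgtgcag
Cox8a: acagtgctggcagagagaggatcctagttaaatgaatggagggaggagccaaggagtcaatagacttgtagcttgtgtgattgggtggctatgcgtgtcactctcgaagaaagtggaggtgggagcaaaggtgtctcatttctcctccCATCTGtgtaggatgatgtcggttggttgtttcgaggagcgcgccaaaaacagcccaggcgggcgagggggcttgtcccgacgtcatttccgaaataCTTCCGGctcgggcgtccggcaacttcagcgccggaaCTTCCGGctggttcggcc
Cox8b held the E-box letters at -19 and 17 from the annotated start and TATAAA at 5, letters that 13.6% of all start regions hold. Cox8a held the E-box letters at -102 and the ETS letters at -5 and 33, which 8.86% of all start regions hold. The MEF2, NRF1 and Sp1 motifs were in neither, and are in 3.19%, 4.60% and 35.7% of all start regions. The table of start regions matched 7 of the 10 genes and did not match Cox4i1, Cox4i2 or Cox6a2. Among the other 3 matched genes, CCGGAAG was found in Cox6a1 and Cox6b1, and the NRF1 motif was found in Cox6a1 at -162 and -117. Sp1 letters were found in Cox6a1 and Cox7a2l, E-box letters in Cox6b1 and Cox7a2l, and the MEF2 motif in none of the 7.

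Cox8b (chr7:140898945-140900446, minus strand) had 206 and 223 CPM in the male and female of litter 1, 174 and 208 in litter 2, 164 and 180 in litter 3, and 220 and 217 in litter 4. The libraries of litter 3 were low, but overlapped with the male of litter 2. Cox8a (chr19:7215153-7217616, minus strand) had 296 and 294 CPM in litter 1, 265 and 272 in litter 2, 314 and 335 in litter 3, and 332 and 320 in litter 4. Its lowest libraries were those of litter 2, and litters 3 and 4 were highest. The share of Cox8b in the reads of the pair was 39.6% ± 3.34 (SD, n = 8). It was 41.1% and 43.1% in litter 1, 39.6% and 43.3% in litter 2, 34.3% and 35.0% in litter 3, and 39.9% and 40.4% in litter 4. Both libraries of litter 3 were below the other 6, with 95% Wilson intervals of 33.5 to 35.2% and 33.9 to 36.1%. Per transcript length the share was 49.98% ± 3.52.

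**Figure D2:**
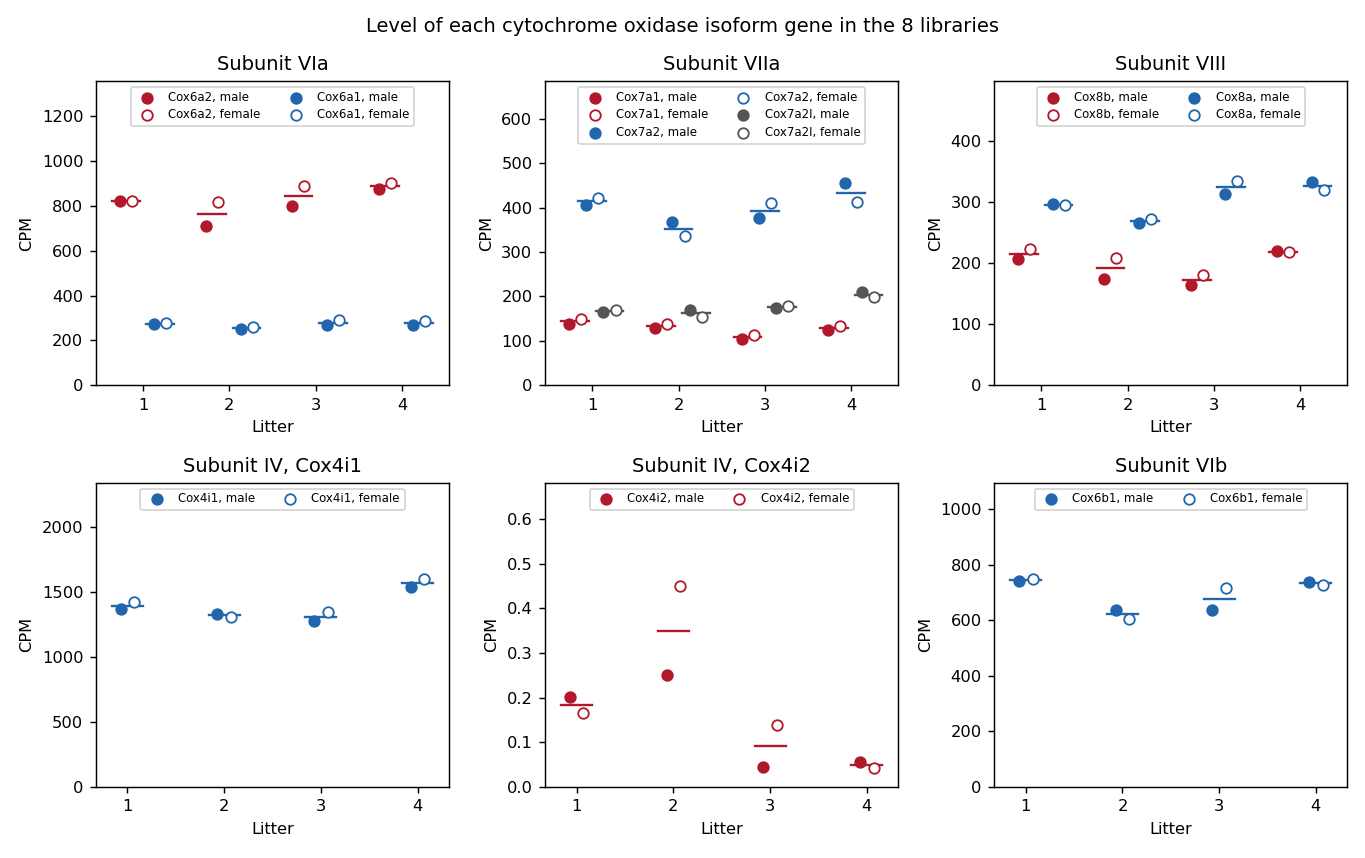
Each panel gives the level in CPM of the genes of 1 subunit by litter, with filled circles for males, open circles for females and lines for litter means. Red marks Cox6a2, Cox7a1, Cox8b and Cox4i2, blue their partners and Cox6b1, and grey Cox7a2l. Cox7a1 is lowest in litter 3, at 103 and 113 CPM, while Cox7a2 is not.

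**Figure D3:**
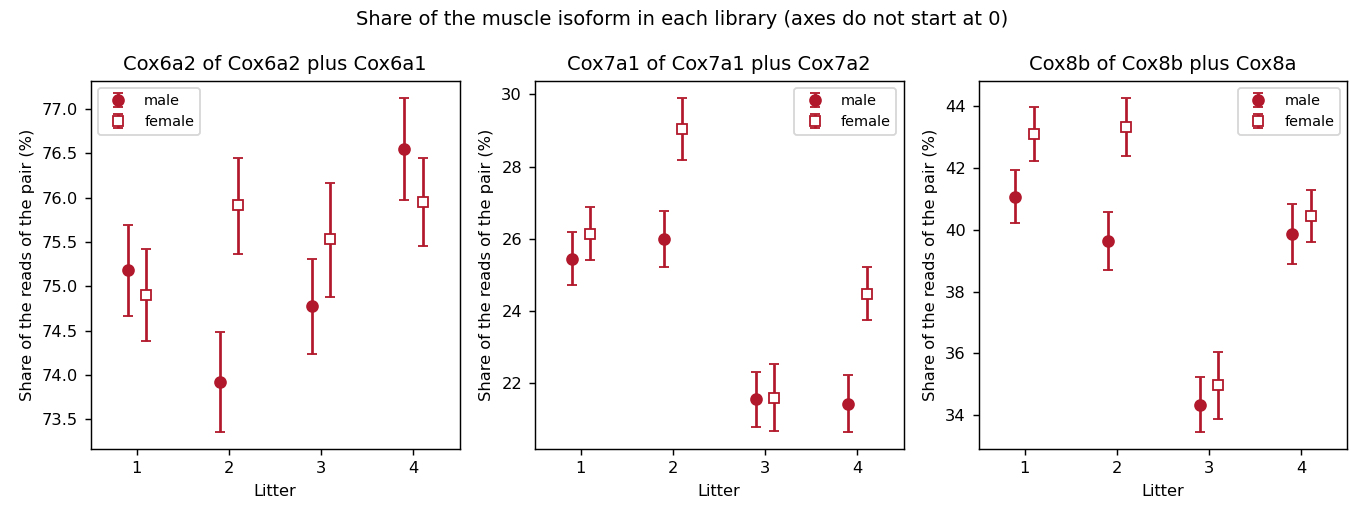
Points give the share of the muscle form in the reads of its pair, in percent, for the 8 libraries by litter, with 95% Wilson intervals for counting error. The shares of Cox8b in litter 3, at 34.3% and 35.0%, lie below those of the other litters, while the shares of Cox6a2 stay between 73.9% and 76.6%. The axes do not start at 0.

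Subunit IV is the largest nuclear subunit, and its common form carried nearly all reads of the pair. Cox4i1 (chr8:120668222-120674207, plus strand) had 1364 and 1421 CPM in the male and female of litter 1, 1331 and 1307 in litter 2, 1275 and 1342 in litter 3, and 1539 and 1596 in litter 4. Both libraries of litter 4 were above the other 6. Of its 100-base windows, 8.26% also lie in Emc8, an overlapping gene with 266 to 579 counts per library, against 19503 to 38026 for Cox4i1. Cox4i2 (chr2:152754173-152765037, plus strand) had 5 and 4 counts in litter 1, 6 and 10 in litter 2, 1 and 2 in litter 3, and 1 and 1 in litter 4. Over all libraries these are 30 of 244100 reads of the pair, a share of 0.0123% with an exact 95% interval of 0.00829 to 0.0175%.

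The libraries of litter 2 had the most Cox4i2 counts. The same libraries had the highest sums of endothelial markers, at 70.5 and 127 CPM against 13.8 to 53.3 CPM in the others. Mural markers, of pericytes and smooth muscle, summed to 551 and 608 CPM there and to between 480 and 555 CPM in the others, so that they overlapped. Abcc9 and Cspg4 made up most of that sum. Of the other 7 genes, Pdgfrb, Rgs5, Kcnj8 and Ndufa4l2 were above the other 6 libraries in both libraries of litter 2. Rgs5, a pericyte marker, had 7.03 and 12.0 CPM there and at most 5.80 CPM elsewhere, and Pdgfrb had 5.66 and 6.30 CPM against at most 3.30 CPM. Of the 7 mural genes tested, 3 were called higher in litter 2, as were all 6 endothelial ones, 5 of 6 fibroblast ones and Wt1 of the epicardium, where 3.30% of all genes were called higher. Across libraries the order was not the same: the male of litter 1 had the lowest endothelial sum, 13.8 CPM, with 5 Cox4i2 counts, and its female 53.3 CPM with 4. The part of these cells in the Cox4i2 counts was not tested. In bulk RNA, fewer cells of a type and less RNA per cell cannot be told apart.

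Subunit VIb, on the side of cytochrome c, is represented by its somatic form. Cox6b1 (chr7:30616861-30626151, minus strand) had 743 and 748 CPM in litter 1, 638 and 605 in litter 2, 637 and 718 in litter 3, and 739 and 727 in litter 4. Litter 1 was above all others, and the lowest library was the female of litter 2.

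The comparison of sexes asked whether the forms are used alike in the hearts of both sexes. None of the 9 tested genes was called in edgeR's quasi-likelihood test, where 0.0436% of all 13771 tested genes were called. Their log2 fold changes, male minus female, ran from -0.12 to 0.04, with SE between 0.07 and 0.11 and adjusted p-values of at least 0.9996. No gene among the 9 had an unadjusted p under 0.05, and DESeq2 also called 0, as did edgeR without litter 3. With litter as a block, in which 0.211% of all genes were called, again 0 of 9 passed (edgeR adjusted p from 0.422 to 0.917). Unadjusted p-values under 0.05 then stood for 2 genes, Cox7a1 with 0.0440 and Cox8b with 0.0451.

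Cox8b had the lowest fold change by sex at -0.12 (SE 0.11), followed by Cox7a1 at -0.11 (SE 0.11) and Cox6a2 at -0.10 (SE 0.09). Cox6a1, Cox6a2 and Cox7a1 were each lower in the male of all 4 litters, but the sexes overlapped in every tested gene. The highest fold change was that of Cox7a2l, at 0.04 (SE 0.10). Leaving out 1 library moved these values, Cox8b to between -0.20 and -0.05, Cox7a1 to between -0.19 and -0.03, and Cox7a2l to between -0.05 and 0.10, which turns its sign. The values nearest 0 for Cox7a1 and Cox8b were those with the litter 3 male left out. That of Cox7a2l was negative with the litter 2 female or the litter 4 male left out. The share of Cox7a1 was 23.6% ± 2.46 in males and 25.3% ± 3.12 in females (SD, n = 4), and lower in the male of all 4 litters. That of Cox8b was 38.7% ± 2.99 and 40.5% ± 3.89, also lower in all 4 males. That of Cox6a2 was 75.1% ± 1.10 and 75.6% ± 0.488, lower in 2 of 4 males. In exact two-sided permutation tests of the log2 ratio over 70 splits, the p-values were 0.486 for Cox6a2, 0.429 for Cox7a1, 0.457 for Cox8b and 0.657 for Cox4i2. Adjusted over these 4 pairs they were 0.648, 0.648, 0.648 and 0.657. The smallest p-value this design allows is 0.0286. With exact sign flips inside litters, Cox7a1 and Cox8b both reached the smallest p-value that 4 litters can give, which is above 0.05.

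Markers of other cells were also compared by sex. Fibroblast markers summed to between 36.8 and 168 CPM in males and between 26.3 and 107 CPM in females, and to more in the male of all 4 litters. With litter as a block, 4 of the 6 were called higher in males, the collagens Col1a1, Col1a2 and Col3a1 and the matrix gene Dcn. Their log2 fold changes were 0.78, 0.73, 0.67 and 1.14 (edgeR adjusted p = 0.00196, 0.00420, 0.00545 and 0.000315), and without the block 0 of the 6 were called. The atrial markers Myl7, Sln and Myl4 were higher in the male of all 4 litters but were not called with the block (log2 1.51, 1.97 and 1.05, edgeR adjusted p from 0.295 to 0.300). Nppa, the remaining atrial marker, was lower in the male of 2 of 4 litters (log2 0.28 with the block, edgeR adjusted p = 0.608). The atrial sum was higher in the male of 3 of 4 litters. Sums of mural markers and of skeletal muscle markers were lower in all 4 males than in their litter’s female, and 0 of their genes were called by sex. Abcc9 led the mural sum and Ckm the other (2697 of 2700 CPM in the litter 1 male). Of the tested genes, Abcc9 and Ckm were lower in all 4 males, Notch3, Myh11 and Tnnt3 in 3, Rgs5 and Kcnj8 in 2, and Pdgfrb, Cspg4 and Mylpf in 1. Myh8, with 6 to 39 counts, was higher in all 4 males, with the sexes apart (log2 1.20 with the block, edgeR adjusted p = 0.305). The part of these cells in the values by sex was not tested.

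Litters were compared by a joint test of their 4 means in a model with sex. In edgeR's quasi-likelihood test, 7 of the 9 tested genes had an adjusted p under 0.05, and 32.1% of all genes tested did. The range of fitted litter means had a median of 0.28 on the log2 scale over the 9 genes and of 0.37 over all genes tested. Cox7a1 had the widest range, at 0.42 (adjusted p = 0.00454), then Cox8b at 0.35 (0.0140) and Cox7a2l at 0.34 (0.0137). Cox7a2 had 0.30 (0.0482), Cox8a 0.28 (0.0226), Cox6b1 0.26 (0.0496) and Cox4i1 0.26 (0.0272). Cox6a2, at 0.22 (0.126), and Cox6a1, at 0.13 (0.335), did not pass. The count of 7 depended on the processing. It was 6 with the size factors of DESeq2 in edgeR and 4 with library size alone, where 4443 and 4720 of 13771 genes were called. Without litter 3 it was 4, where 13.7% of all genes were called. With 1 library left out it was 3 to 6, where at most 4097 genes were called. Of 17 alternatives, 10 ended the call of Cox4i1, 10 that of Cox6b1, 8 that of Cox7a2, 5 that of Cox8a, 3 that of Cox8b and 1 that of Cox7a2l. Without litter 3, Cox8b had a range of 0.20 (adjusted p = 0.175), and Cox4i1 of 0.25 (0.0632). It was also the one alternative that ended the call of Cox7a1 (range 0.16, adjusted p = 0.257).

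Each litter was then set against the mean of the other 3. These 4 comparisons share libraries, so the values below are side by side and not independent. In litter 3, 2 of the 9 genes were lower and 0 were higher, where 14.8% of all genes tested were called lower and 13.6% higher. Both are muscle forms. Cox7a1 fell by 0.32 on the log2 scale (SE 0.06, edgeR adjusted p = 0.00152), and Cox8b by 0.27 (SE 0.06, adjusted p = 0.00821). The third muscle form, Cox6a2, was not called and had a log2 difference of 0.04 (SE 0.06, adjusted p = 0.694). Among the ubiquitous partners, Cox7a2 had -0.02 (SE 0.07), Cox6a1 0.06 (SE 0.05) and Cox8a 0.13 (SE 0.06, adjusted p = 0.0972). With library size alone as the scaling, Cox8a passed as higher in litter 3 (0.18, adjusted p = 0.0311), where the median over all genes was 0.04. Against litters 2 and 4 alone, Cox7a1 differed by -0.28 (adjusted p = 0.00627) and Cox8b by -0.25 (0.0195). The call of Cox7a1 remained in all 15 alternatives, with adjusted p-values of at most 0.0266. That of Cox8b was lost when either library of litter 3 was left out, the male (0.0768) or the female (0.0656).

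**Figure D4:**
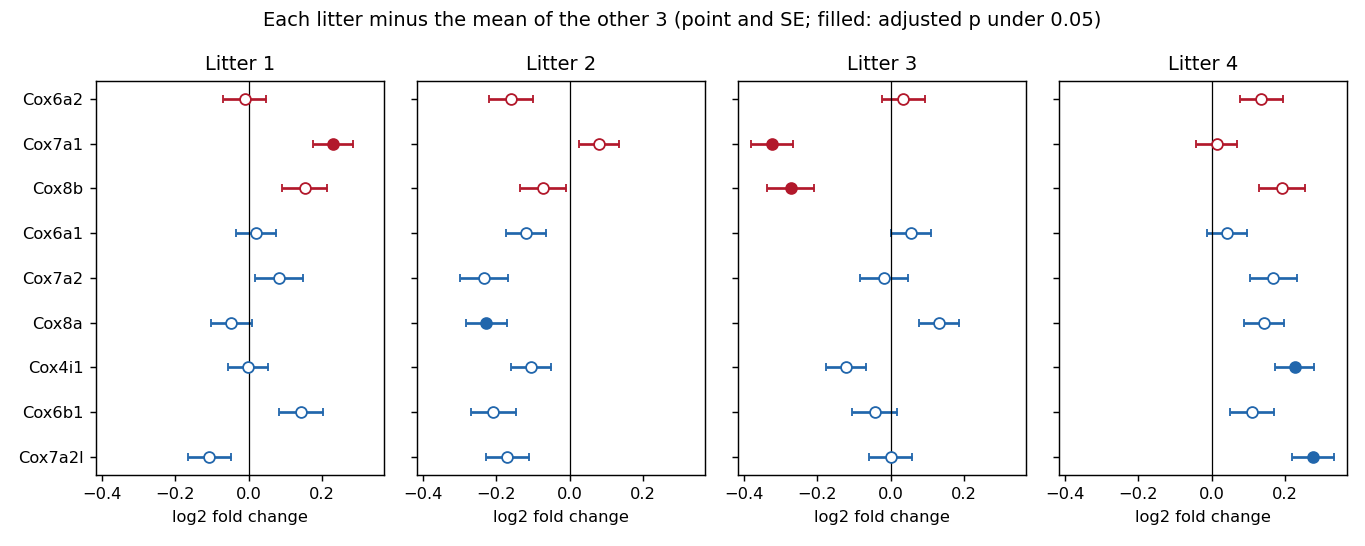
Points give the log2 fold change of each litter against the mean of the other 3 for the 9 tested genes, with the SE as a line. Red marks muscle forms, blue the other genes, and filled points an edgeR adjusted p under 0.05. Cox7a1 at -0.32 and Cox8b at -0.27 are the filled points of litter 3.

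A muscle form and its partner were also compared by their log2 ratio within each library, which does not depend on library scaling. The permutation tests below ask whether the male and female of a litter had alike ratios. The difference of a single litter in the ratio was not tested. The ratio of Cox7a1 to Cox7a2 in litter 3 was 0.30 lower than the mean of the other litters, with shares of 21.6% ± 0.0221 (SD, n = 2) in litter 3, 25.8% ± 0.489 in litter 1, 27.5% ± 2.16 in litter 2 and 22.9% ± 2.16 in litter 4. The ratio of Cox8b to Cox8a was 0.40 lower, with shares of 34.7% ± 0.442 in litter 3, 42.1% ± 1.44 in litter 1, 41.5% ± 2.61 in litter 2 and 40.1% ± 0.412 in litter 4. In litter 2 the ratio of Cox7a1 to Cox7a2 was 0.31 higher than the mean of the other litters, and that of Cox8b to Cox8a 0.15 higher. Litters held 92.2% of the sex-centred sum of squares of the ratio for Cox7a1, 95.8% for Cox8b, 53.2% for Cox6a2 and 86.3% for Cox4i2. In exact one-sided permutation tests over the 24 ways to match females to males, the p-values were 0.0833 for Cox7a1, 0.167 for Cox8b and 0.542 for Cox6a2. After adjustment over the 4 pairs, the exact p-values were 0.222 for Cox7a1, Cox8b and Cox4i2 and 0.542 for Cox6a2. The smallest p-value possible is 0.0417. Without litter 3 the part of the sum of squares between litters was 91.7% for Cox7a1 and 61.8% for Cox8b.

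Several other measures moved with litter 3. Cardiomyocyte markers summed to 54886 and 55299 CPM there and to between 59350 and 69515 CPM elsewhere, a gap carried by Myh6. Without Myh6, left out after its values were seen, the sums were 38375 and 38790 CPM against 37747 to 40441 CPM, so that the litters overlapped. Of the 8, Myh6, Actn2 and Myl3 were called lower, with log2 differences of -0.61, -0.36 and -0.36, and 0 were called higher. Tnnt2, Pln, Ryr2 and Ttn had positive values, from 0.02 to 0.16. Fibroblast markers summed to 26.3 and 36.8 CPM against 74.5 to 168 CPM, with 4 of 6 called lower. Endothelial markers summed to 14.8 and 15.8 CPM, inside the range of the others (13.8 to 127 CPM). Of the 6, 5 were called lower against a mean that holds the high values of litter 2. Of 4 atrial markers, Nppa was called higher, at 1176 and 1511 CPM against 178 to 475 CPM. The other 3, Myl7, Sln and Myl4, overlapped with the other litters, with log2 differences of -0.85, -0.96 and 0.40 and no call. Erythroid markers summed to 529 CPM in the male and 184 CPM in the female against 97.7 to 243 CPM, so that only the male lay above the others, with 2 of 5 tested called higher. Mural genes were called lower in 4 of 7, Pdgfrb (-2.30), Rgs5 (-2.21), Myh11 (-2.15) and Notch3 (-1.82), while the sums of that list, 552 and 555 CPM, lay inside the range of the others. Msln of the epicardium (-1.29) and Ckm, the muscle creatine kinase (-0.25), were also called lower. The part of all these markers in the levels of Cox7a1 and Cox8b was not tested. When every library was thinned to the smallest total, both genes were still called lower in litter 3.

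Calls also stood in the other litters. In litter 1, Cox7a1 was higher by 0.23 (SE 0.05, edgeR adjusted p = 0.0171), 1 of 9 genes, where 7.86% of all genes tested were called higher. It lost the call without the male (0.227) or female (0.231) of that litter and without litter 3 (log2 difference 0.14, adjusted p = 0.203). Markers called with it in litter 1 were Ttn and Ryr2 of 8 cardiomyocyte genes (higher by 0.21 and 0.18) and 3 of 6 fibroblast genes, also higher. Called lower were Nppa, at -0.97, and Cspg4, at -0.23, and their part in the value of Cox7a1 was not tested. In litter 2, Cox8a was lower by 0.23 (SE 0.06, adjusted p = 0.0457), 1 of 9 genes, where 0.879% of all genes were called lower. That call was lost in 9 of 15 alternatives, among them library size alone (0.0709) and each of the litter's own libraries left out (0.259 and 0.282). All 9 genes but Cox7a1 had negative values in litter 2, with a median of -0.16 against 0.0043 over all genes tested. Markers called higher there were all 6 endothelial, 5 of 6 fibroblast and 3 of 7 mural genes and Wt1, where 3.30% of all genes were. Their part in these values was not tested.

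In litter 4, 2 of 9 genes were higher, where 4.71% of all genes were called higher: Cox4i1 by 0.23 (SE 0.05, edgeR adjusted p = 0.0220) and Cox7a2l by 0.28 (SE 0.06, adjusted p = 0.0137). All 9 genes had positive values there, with a median of 0.14 against 0.01 over all genes. With library size alone as the scaling, the median of the 9 was 0.07 against -0.06 over all genes, Cox6a1 and Cox7a1 turned negative with that shift, and Cox4i1 lost its call (0.15, adjusted p = 0.0933). Cox4i1 also lost it without either library of litter 1 (0.0788 and 0.0711) or of litter 4 (0.0936 and 0.102). Cox7a2l lost its call without the male (0.120) or the female (0.0597) of litter 4. Without litter 3 both were called, and so was Cox8a (0.21, adjusted p = 0.0348). Genes of mitochondrial DNA took 18.5% of counts in the male of litter 4 and 13.4 to 15.2% in the other libraries. Their part in these values was not tested, and both calls remained when these genes were left out of the table. Of cell type markers in litter 4, 4 of 6 fibroblast genes were called higher, though their sums (74.5 and 155 CPM) overlapped with those of the others. Of 8 cardiomyocyte genes, Actn2, Tnni3 and Myl3 were called higher (0.22 to 0.23), and Ttn (-0.25) and Ryr2 (-0.41) lower. Single genes of other lists were called too, Ckm (0.26) and Myh11 (1.48) higher and Abcc9 (-0.21) and Cd68 (-0.92) lower. The part of these markers was not tested.

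By bare order of the 8 libraries, both libraries of litter 1 were above the other 6 in 2 of 9 genes, where 8.89% of all genes tested had that order. In litter 2 both were below in 3 of 9 genes (3.60% of all genes), Cox6a1, Cox7a2 and Cox8a, which are the 3 ubiquitous partners of the muscle forms. In litter 3 both were below in 1 of 9 (16.4% of all genes), and in litter 4 above in 2 of 9 (8.23% of all genes). That these 3 genes share a role was noticed after their values were seen, and the order depends on the scaling. With library size alone, an alternative added after the data were seen, Cox6a1 had 264 CPM in the female of litter 2 and 255 CPM in the male of litter 4, so that it overlapped. The 3 genes below in litter 2 were then Cox6b1, Cox7a2 and Cox8a, and Cox7a1 was no longer above in litter 1. Cox8a was then above the other 6 in litter 3, at 321 and 342 CPM. The share of all genes with each order was not computed under that scaling.

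The rest of complex IV gave a setting for these values. Of 6 other nuclear subunits, 3 passed the joint litter test, Cox6c, Ndufa4 and Cox5a, with ranges of 0.29, 0.29 and 0.23 (edgeR adjusted p = 0.0393, 0.0304 and 0.0472), where 32.1% of all genes did. All 3 lost that call with library size alone (0.126, 0.0900 and 0.143), and over all 17 alternatives in 8, 8 and 12. Without litter 3, Cox6c alone of the 6 passed, where 13.7% of all genes did. In litter 3 all 6 had negative values, with a median of -0.11 against 0.00013 over all genes. Of these, 2 of 6 were called lower, where 14.8% of all genes were: Ndufa4, a late-joining subunit, by 0.19 (SE 0.06, adjusted p = 0.0461), and Cox5a, of the matrix side, by 0.17 (SE 0.06, adjusted p = 0.0407). Both calls were lost with the size factors of DESeq2 in edgeR and with library size alone. In litter 4 Cox6c was higher by 0.21 (adjusted p = 0.0421), a call lost with library size alone. Of the forms known from testis, Cox6b2 had 60 to 160 counts per library and did not pass the litter test (adjusted p = 0.206). Cox7b2 had 1 to 7 counts, and Cox8c had 0 in every library, which allows at most 0.120 to 0.211 CPM at 3 counts per library.

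Of the catalytic subunits, mt-Co1 had 52986 and 49850 CPM in the male and female of litter 1, 55816 and 51664 in litter 2, 52565 and 53987 in litter 3, and 76752 and 60643 in litter 4. Both libraries of litter 4 were above the other 6. The log2 difference of litter 4 was 0.37 (SE 0.07, edgeR adjusted p = 0.00908), and the joint litter test lost its call without the male of litter 4 (0.0823) or the male of litter 1 (0.0693). Levels of mt-Co2 and mt-Co3 are uncertain, because 99.5% and 99.9% of their 100-base windows also occur in nuclear copies, and for mt-Co1 this was 30.8%. Neither mt-Co2 nor mt-Co3 passed the litter test.

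Proteins that build the complex, by inserting heme and copper or by handling mitochondrial mRNA, were tested as a list of 32 genes, of which 31 had an entry and 30 enough counts. In the joint litter test 10 of 30 passed, close to the 32.1% of all genes, and without litter 3, 3 of 30 passed, against 13.7% of all genes. In litter 3, 9 of 30 were lower and 0 higher, with 14.8% of all genes called lower and a median of -0.12 against 0.00013. Without TMM scaling, by either alternative, 8 were called lower. In litter 1, 6 were higher and 0 lower, where 7.86% of all genes were higher. Without litter 3, 2 were higher in litter 1, where 574 of all 13899 genes tested were. In litter 4, 3 were higher (4.71% of all genes) and 1 was lower. With the size factors of DESeq2 in edgeR 2 were higher there, and with library size alone 1. Higd1a, of a family that binds complexes III and IV, had 97.8 and 99.7 CPM in litter 1, 82.8 and 81.8 in litter 2, 55.1 and 54.6 in litter 3, and 89.4 and 88.7 in litter 4. The libraries of litter 3 were far below the others. Its log2 difference in litter 3 was -0.71 (SE 0.06, edgeR adjusted p = 1.24e-05). Its range between litters, 0.85, was 0.26 without litter 3 and no longer called (adjusted p = 0.0738).

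Slirp, an RNA-binding protein that stabilizes mitochondrial mRNA, fell in litter 3 by 0.52 (SE 0.08, edgeR adjusted p = 0.000624). Cmc2, a small protein with a role in the assembly of complex IV, fell by 0.56 (SE 0.08, adjusted p = 0.000564). Without litter 3 the range of Cmc2 went from 0.67 to 0.25 and lost its call (adjusted p = 0.170), and that of Slirp from 0.69 to 0.38 (0.0372). Cycs, which encodes cytochrome c itself, had 275 and 268 CPM in litter 1 and 169 and 181 in litter 3. It rose in litter 1 by 0.47 (SE 0.06, adjusted p = 0.000592) and fell in litter 3 by 0.37 (SE 0.07, adjusted p = 0.00156). Of 5 genes known to act on Cox4i2 transcription or on the turnover of subunit IV, 1 passed the joint litter test, Chchd2. It was also higher in litter 4 by 0.23 (SE 0.06, adjusted p = 0.0300). Both calls were lost with library size alone (joint test 0.115), and the joint call in 7 of 17 alternatives. Hif1a, named after its value was seen, was lower there by 0.27 (SE 0.08, adjusted p = 0.0491) without passing the joint test (0.0513, and 0.0399 without litter 3). No gene of complex IV, its assembly, cytochrome c or this list of 5 was called by sex, with or without the block.

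**Figure D5:**
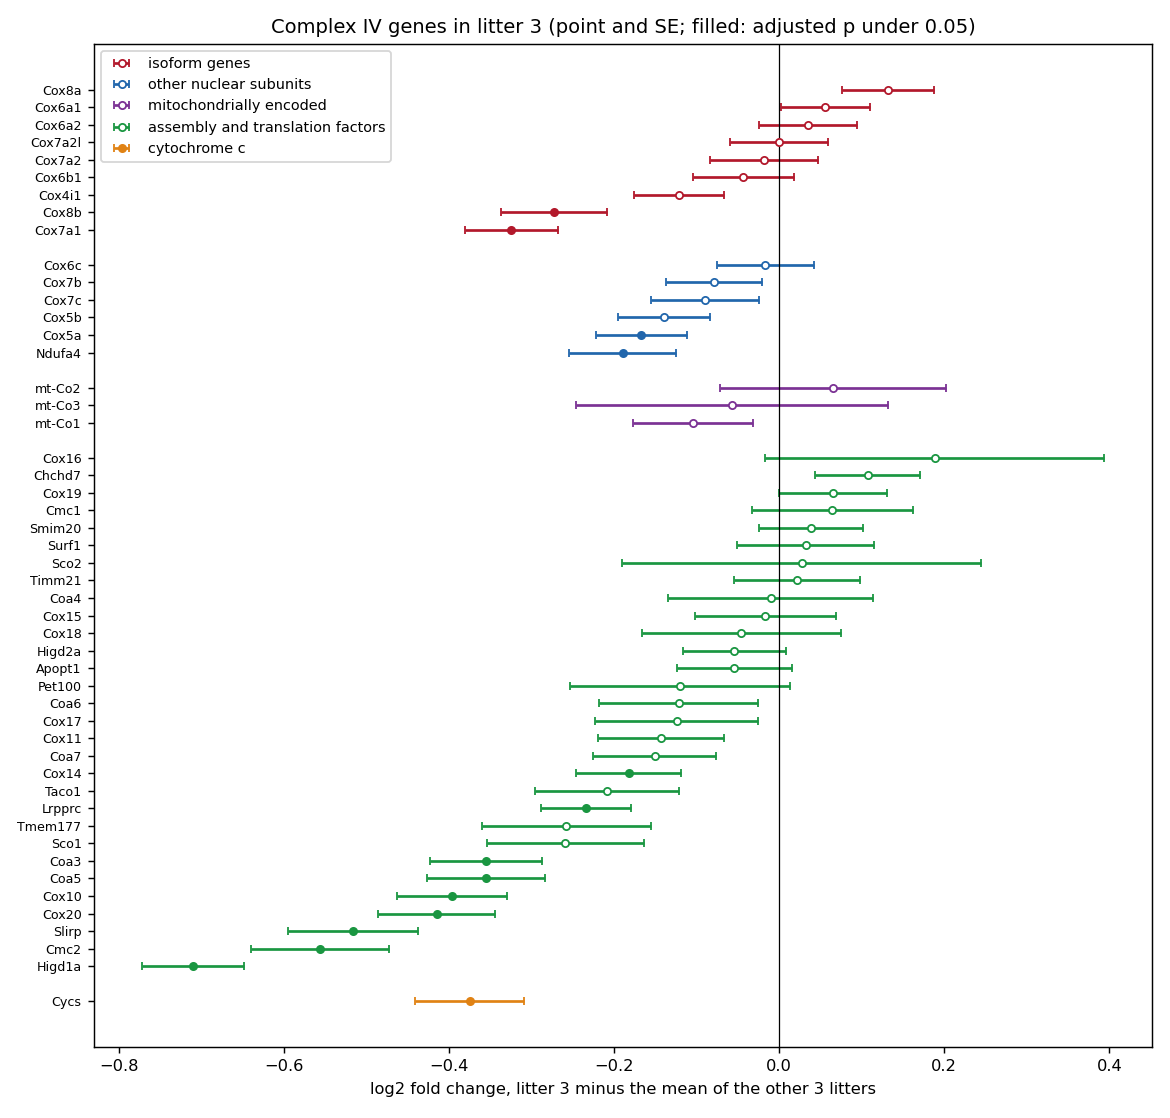
Points give the log2 fold change of litter 3 against the mean of the other 3 litters for the tested genes of complex IV, its assembly and cytochrome c, with the SE as a line and filled points for an edgeR adjusted p under 0.05. Higd1a, at -0.71, is the lowest point, and no gene of these lists is filled on the positive side.

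The genes most like each muscle form were found by the Pearson correlation of log2 CPM over the 8 libraries, among 13770 other genes. These libraries share litters, so the values only describe. For Cox6a2 they were Rps29 (r = 0.95), Dyx1c1 (0.95) and Clk3 (0.95), and its partner Cox6a1 ranked 59 (0.85). For Cox7a1 they were Spata33 (0.99), Slc37a2 (0.98) and Chd3os (0.98), while its partner Cox7a2 ranked 6556 (0.04) and Cox8b ranked 1154 (0.78). For Cox8b they were Uqcr11, a subunit of complex III (0.99), Nrm (0.98) and Ndufa11, a subunit of complex I (0.98), while Cox8a ranked 6236 (0.08). Over the 6 libraries without litter 3, the values of these top genes ran from 0.89 to 0.9993. The top genes were picked over libraries that include these 6, so their high values follow in large part from that choice. Of pairs of members over the 6 libraries, Cox7a1 and Cox8b had 0.34, Cox8b and Cox8a 0.72, and Cox7a1 and Cox7a2 -0.14. Cox8b and Cox6a2 had 0.90, against 0.50 over all 8, while Cox6a2 and Cox6a1 stayed at 0.85.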

How the data were processed

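RNA was measured in 8 libraries of purified cardiomyocytes. Per the labels' protocols, a stranded kit for total RNA was used and single-end reads were made, while poly(A) RNA is the molecule entered in the labels, and both entries are the submitters'. The authors deposited raw counts per gene symbol and library in 1 table. The tool STAR 2.7.3a and the build mm10 are named, per the submitters' processing notes. The counting program, the annotation and whether counts used strand are not given in the sources used here, so reads of overlapping genes cannot be told apart.

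Counts were analysed in R 4.3.3 with edgeR 4.0.16 and, as an alternative, DESeq2 1.42.0. Shares were computed in Python 3.11.15 with scipy 1.17.1. Genes were kept by filterByExpr on sex (13771 genes), scaled by TMM and tested by the quasi-likelihood F test. Adjustment over all genes tested followed Benjamini and Hochberg, with a threshold of 0.05. Sex was tested without a litter term (6 residual degrees of freedom), and litter in a model with sex (3 residual degrees of freedom). Each SE was taken from the log2 fold change and its F value. The log2 ratio of a pair used a pseudocount of 0.5. Gene positions, transcript lengths and shared 100-base windows come from GENCODE M21 (GRCm38), and start regions from RefSeq (GRCm38.p6). Scripts were tested on simulated data.

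The members, lists and tests were chosen with earlier results of these data known. Named were all members, up to 3 genes of each list past the joint litter test with the widest range, any list gene past the sex test, and the 3 genes most like each muscle form. The numbers of the libraries are litters, per the labels, so they pair the sexes. With sex means removed, correlations across genes within litters ran from 0.367 to 0.696, and between litters from -0.482 to 0.270. Chi-square per degree of freedom between libraries of 1 sex was at least 10.5, so that no library repeated another. Alternatives were other scalings and filters, thinning to the smallest total, no mitochondrial genes, no sex term, DESeq2, the litter block, and libraries or litters left out.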

Additional observations from a re-analysis of the deposited data

Results flagged for a closer look

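In groups of 4 libraries of 1 sex, the gap of the highest or lowest library to its nearest neighbour was set against Dixon's 95% critical value. Of 34 groups, 3 passed, where chance gives about 1.7. Cox6a1 had 250.3 CPM in the male of litter 2, below the 268 to 272 CPM of the other males. Cox7a2 had 337 CPM in the female of litter 2, below the 410 to 422 CPM of the other females. The level of mt-Co1 was 76752 CPM in the male of litter 4, above the 52565 to 55816 CPM of the other males.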

How the results depend on the processing

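Directions of the 6 called differences of a member between a litter and the others held in each alternative that was run, and lost calls are given or counted beside their results. The count of genes that differed by sex was 29 with litter as a replicate block (21 higher, 8 lower), against 6 without it. The block changed no call of a member. Sign flips of the shares over 4 litters, and matchings of 3 litters, cannot give a p-value under 0.05 and say nothing on stability. The count for litter 2 was 1249 without a filter on low counts and 345 with a mean of at least 50 counts, against 575. With libraries or litter 3 left out, counts ran from 5 to 8 for sex, 1898 to 4097 for the joint litter test (4427 with all libraries), 359 to 1869 for litter 1 (1827), 153 to 752 for litter 2, 1704 to 3791 for litter 3 (3903) and 322 to 1984 for litter 4 (1447). The lowest joint count was that without litter 3, and the lowest counts of a litter were those without 1 of its own libraries. Where 1 library of a litter is left out, the other is assumed to vary like the rest, and the cause of these shifts beyond fewer libraries was not tested. With library size alone, genes higher and lower in litter 2 were 530 and 74 (454 and 121 with TMM), in litter 3 2419 and 1698 (1871 and 2032) and in litter 4 262 and 1501 (648 and 799). The median over all genes moved by under 0.1 on the log2 scale in each. Without litter 4, litters held 3.73% of the sum of squares of the ratio of Cox6a2, against 53.2%.

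With 2 libraries a litter, calls near the threshold, such as Cox6b1 (adjusted p = 0.0496 by edgeR), depended on 1 library or on the scaling. Cox4i2, with 1 to 10 counts a library, was not tested as a gene, and its differences between libraries rest on few counts. P-values by sex without the block rest on the spread between these 8 hearts within each sex. In the litter tests and with the block, they rest on differences between litter mates that remain after sex. That leaves 3 residual degrees of freedom.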
